A study of Mus musculus with 2 samples.

Results

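The genes described here encode the insulin-like growth factor (IGF) system of the mouse mammary gland: the ligand Igf1, its receptor Igf1r and the binding proteins Igfbp2, Igfbp3, Igfbp4, Igfbp5, Igfbp6 and Igfbp7. The members were chosen by name, 8 of the 32285 genes of the count tables. Igf1 is a secreted hormone that activates the receptor tyrosine kinase encoded by Igf1r, which signals through insulin receptor substrates to PI3K and AKT and to cell growth and survival. Igfbp2 to Igfbp6 encode secreted proteins that bind IGF ligands with high affinity and can hold them from the receptor or carry them to it, and proteases release the ligand. Igfbp7 binds IGFs weakly and is known chiefly as a protein of vessel walls and matrix. In the mammary gland, growth hormone acts on the stroma to raise IGF1, which drives duct outgrowth, and IGFBP5 is known from the involuting gland.

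Mammary glands of adult female mice aged 9 to 10 weeks were dissociated, sorted and sequenced with the 10x Genomics 3′ assay. One group of animals received no stated agent (Ctrl), and the other received clodronate liposomes (CL) by intraperitoneal injection, vesicles whose cargo is toxic to the phagocytes that engulf them. Both groups were wild type, and immune cells positive for CD45 were combined with cells lacking CD31 and TER119, in a proportion that was not stated. Each group is 1 library, and whether animals were pooled was not stated, so differences between them could not be set against a spread of replicates and were not tested. The intervals in square brackets are exact 95% intervals (Poisson for levels, Clopper-Pearson for shares, conditional binomial for ratios) and cover counting error only. A difference is called beyond counting error where its interval excludes 0 on the log2 scale.

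After filtering, 5945 Ctrl and 8839 CL cells remained, with medians of 11351 and 10347 unique molecular identifiers (UMIs, one per captured transcript molecule) per cell. Among the candidate barcodes taken before filtering, 22 were shared by both libraries. Over all cells the sum of 12 macrophage markers was 108 CPM for Ctrl but 257 CPM for CL, which runs against the label of the treated library, and the libraries are named by their labels throughout. The cells behind this sum differed, however. A macrophage-like cluster with low C1q expression, led by Lyz2 and S100a8, held 18 Ctrl and 211 CL cells, whereas one with high C1q expression held 40 of the 5945 Ctrl and 43 of the 8839 CL cells. Cells were grouped by marker genes that exclude the members. Basal-like cells numbered 407 in Ctrl and 444 in CL. Hormone-responsive luminal-like cells numbered 2252 and 3083, and secretory-lineage luminal-like cells 2644 and 3910. Fibroblast-like cells numbered 225 and 239, endothelial-like cells 54 and 63 (although CD31-negative cells were sorted), macrophage-like cells 58 and 254, and T and NK-like cells 213 and 735. Each class held UMIs of all its markers, except 1 secretory marker absent from Ctrl. The sum of the 9 basal markers was alike (19751 and 19731 CPM), whereas that of the 8 fibroblast markers was 41607 CPM for Ctrl against 26572 CPM for CL, and that of the 8 secretory-lineage markers 8317 against 5717 CPM. The clusters left without a class name were one led by the smooth muscle gene Myl9 (37 and 44 cells) and one led by the chemokine gene Ccl2 (29 and 33 cells).

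Levels are CPM, the UMIs of a gene relative to all UMIs of a class. Since the assay counts the 3′ end of each molecule once, CPM does not depend on transcript length and was compared between genes. Free RNA adds UMIs to cells that do not express a gene, so each level was set beside that in droplets of 100 to 300 UMIs of the same library. Per droplet CPM, marker transcripts of other classes reached between 0.0667 and 0.165 in basal-like, secretory-lineage and fibroblast-like cells, up to 0.352 in hormone-responsive cells and up to 0.394 in endothelial-like cells. A member at or under such a ratio was read as background.

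The members lie on 6 chromosomes (GENCODE M21, build GRCm38). Igf1 (ENSMUSG00000020053) spans chromosome 10, 87858265 to 87937042, plus strand. Igf1r (ENSMUSG00000005533) spans chromosome 7, 67952827 to 68233668, plus strand. Igfbp2 (ENSMUSG00000039323, chromosome 1, 72824503 to 72852474, plus strand) and Igfbp5 (ENSMUSG00000026185, chromosome 1, 72857932 to 72874884, minus strand) point toward each other with 5457 bases between them. Igfbp3 (ENSMUSG00000020427) spans chromosome 11, 7206086 to 7213923, minus strand, and Igfbp4 (ENSMUSG00000017493) lies on the same chromosome at 99041244 to 99054392, plus strand. Igfbp6 (ENSMUSG00000023046) spans chromosome 15, 102144362 to 102149511, plus strand, and Igfbp7 (ENSMUSG00000036256) chromosome 5, 77349240 to 77408041, minus strand.

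The promoters of 3 binding proteins are shown because each was led by a different cell class: Igfbp3 by basal-like, Igfbp4 by fibroblast-like and Igfbp5 by secretory-lineage cells. Each run gives the 150 bases before the RefSeq start (GRCm38.p6), 5′ to 3′ on the gene's strand, with capitals marking matches on either strand to 1 of 4 motifs: the TATA box forms TATAAA and also TATATA, the GC box GGGCGG and the CCAAT box. The positions are chr11:7213924-7214073 (minus) for Igfbp3, chr11:99041094-99041243 (plus) for Igfbp4 and chr1:72874866-72875015 (minus) for Igfbp5.
Igfbp3: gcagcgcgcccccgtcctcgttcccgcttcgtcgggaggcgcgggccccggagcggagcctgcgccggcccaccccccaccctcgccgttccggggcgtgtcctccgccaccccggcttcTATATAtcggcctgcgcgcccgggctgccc
Igfbp4: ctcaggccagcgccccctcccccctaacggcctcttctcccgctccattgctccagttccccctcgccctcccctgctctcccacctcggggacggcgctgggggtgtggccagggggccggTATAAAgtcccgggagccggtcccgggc
Igfbp5: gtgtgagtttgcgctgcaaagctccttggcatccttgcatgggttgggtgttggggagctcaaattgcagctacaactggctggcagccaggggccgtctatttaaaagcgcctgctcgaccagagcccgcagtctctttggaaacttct

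The match in the Igfbp3 promoter was TATATA, which began 30 bases before the start, and that in the Igfbp4 promoter was TATAAA, which began 28 bases before it. The Igfbp5 window held none of the 4 motifs. Among 32851 promoters of the same length, 2.97% held TATATA, 7.57% TATAAA, 28.6% GGGCGG and 24.5% CCAAT. All 8 members had a RefSeq promoter. Igfbp7 held 4 matches to GGGCGG, Igf1r 2, and the first of 2 Igfbp2 windows 3. Igf1 held 1 match to CCAAT, and Igfbp6 held 2 beside 1 TATAAA on the opposite strand. These matches describe letters in the windows and not bound sites.

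The first question was which cells carried each transcript. Igf1 and the binding proteins Igfbp4, Igfbp6 and Igfbp7 were led among the named classes by fibroblast-like cells in both libraries. Igfbp2, Igfbp3 and the receptor Igf1r were led by basal-like cells, and Igfbp5 by secretory-lineage luminal cells. Hormone-responsive luminal cells held every member below its droplet level, at the deepest coverage (median 20298.5 and 18059 UMIs per cell). The leading class stayed the same for all 8 members in both libraries, and each margin over the next class exceeded counting error.

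**Figure D1:**
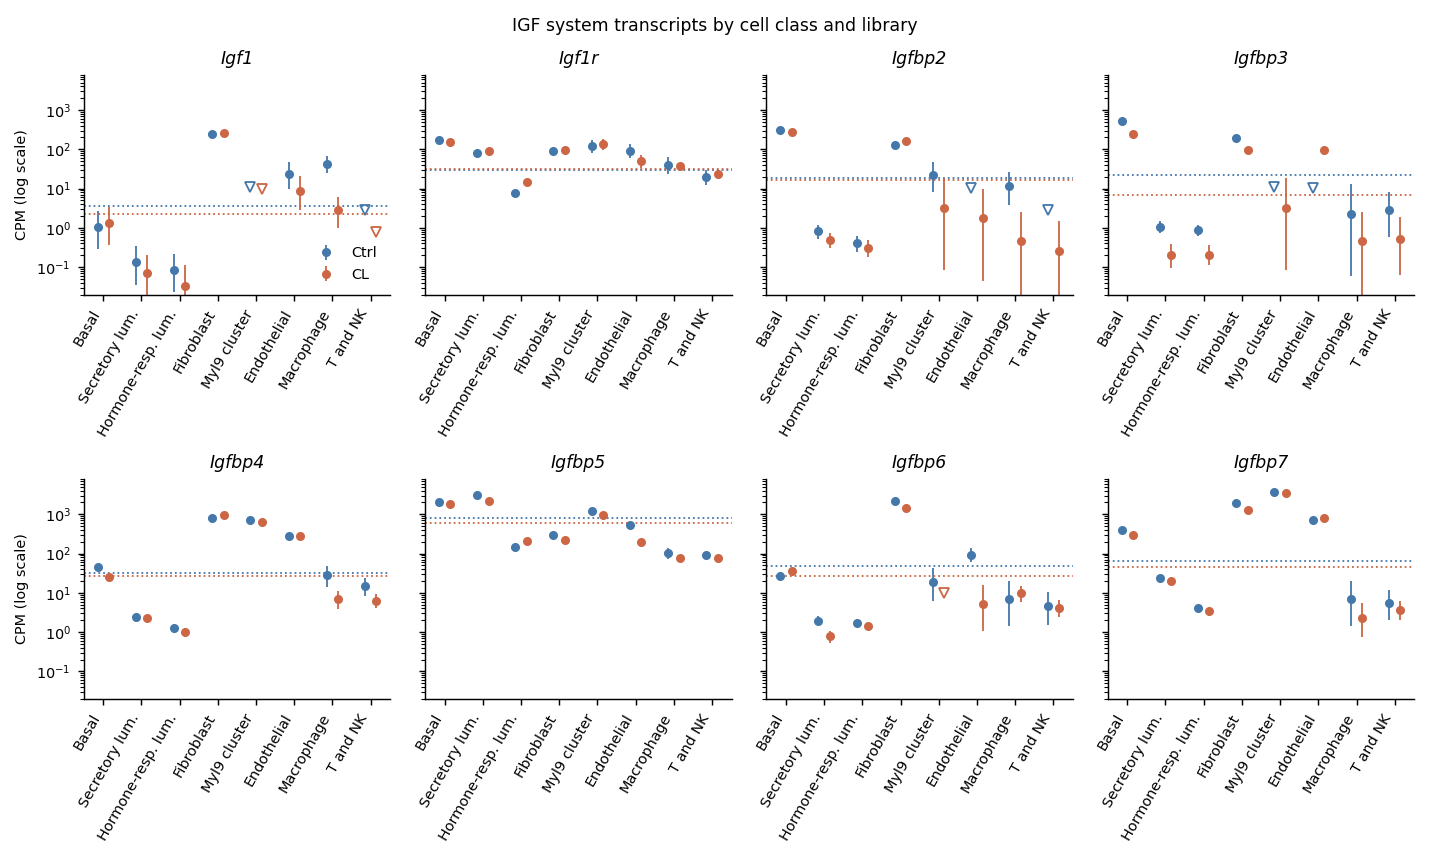
Level of each member (CPM, log axis) in 7 cell classes and the unnamed Myl9 cluster of the Ctrl (blue) and CL (orange) libraries, with bars for exact 95% Poisson intervals, open triangles for the level that 3 counts would give where no UMI was found, and dotted lines for the droplet level. Igf1 stands far above the droplets in fibroblast-like cells (239 and 261 CPM), while Igfbp5 exceeds its droplet level in secretory-lineage, basal-like and Myl9 cells.

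Igf1 was largely a transcript of the fibroblast-like cells. They held 445 UMIs in Ctrl (239 CPM [217, 262]) and 432 UMIs in CL (261 CPM [237, 286]), which was 90.6% and 94.1% of all Igf1 UMIs in the cells kept. The libraries overlapped, with a log2 ratio of CL over Ctrl of 0.13 [−0.07, 0.32]. An Igf1 UMI was found in 113 of 225 Ctrl fibroblast-like cells (50.2%) and in 121 of 239 CL cells (50.6%). After thinning each cell to 1572 UMIs the shares were 21.2% [15.8, 27.3] and 25.6% [19.9, 32.0]. T and NK-like cells, which should lack the gene, held no Igf1 UMI in either library, at median depths of 4872 and 4460 UMIs against 7950 and 5523 in the fibroblast-like cells. That absence was read as up to 2.77 and 0.782 CPM in the respective libraries, the levels that 3 counts would give rather than exact limits.

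No epithelial class expressed the ligand above the droplets. Basal-like cells held 4 Igf1 UMIs in each library (1.06 and 1.34 CPM, against 3.54 and 2.25 CPM in droplets), hormone-responsive cells 4 and 2 UMIs, and secretory-lineage cells 4 and 3 UMIs. Igf1r was at its highest in the same basal-like cells. Outside the fibroblast-like cells, Igf1 exceeded the droplets in endothelial-like cells (7 and 5 UMIs), in the Ccl2 cluster (9 and 7 UMIs, 83.3 and 76.6 CPM) and in macrophage-like cells. In the macrophage-like cluster with high C1q expression, 18 Igf1 UMIs were found in 5 of 40 Ctrl cells (55.4 CPM [32.8, 87.5]), and 7 of them came from 1 cell. The same cluster held no Igf1 UMI in 43 CL cells, which was read as up to 5.94 CPM, the level that 3 counts would give. The exact interval of the log2 ratio of CL over Ctrl ended at −2.77, but 18 UMIs are fewer than the 50 from which ratios were otherwise read, and they rest on 5 cells. The macrophage-like cluster with low C1q expression, with 18 Ctrl and 211 CL cells, held 0 and 6 Igf1 UMIs, and the interval of its CL level, 1.32 to 7.84 CPM, included the droplet level.

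Igf1r was above its droplet level in several classes. Basal-like cells held 170 CPM [157, 183] in Ctrl and 153 CPM [139, 167] in CL, and the log2 ratio of −0.15 [−0.33, 0.02] stayed within counting error. Fibroblast-like cells came next among the named classes with 92.8 and 97.1 CPM (log2 ratio 0.07 [−0.25, 0.38]). The basal lead over them was 0.87 [0.63, 1.12] on the log2 scale in Ctrl and 0.65 [0.39, 0.92] in CL. In Ctrl the endothelial-like level of 91.0 CPM lay within the interval of the fibroblast-like level [79.5, 108]. The Myl9 cluster reached 119 CPM [81.6, 168] and 133 CPM [95.4, 180], intervals that overlapped those of basal-like cells.

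Secretory-lineage cells carried Igf1r at 82.5 CPM [79.4, 85.8] in Ctrl and 89.4 CPM [86.6, 92.2] in CL, a log2 ratio of 0.11 [0.04, 0.19] that was small but beyond counting error. Being numerous, they held 65.9% and 68.5% of all Igf1r UMIs. Among T and NK-like cells the receptor (19.4 and 22.9 CPM) lay below the droplet level of 29.8 and 30.8 CPM, yet its ratio to the droplets (0.649 and 0.744) exceeded that of foreign markers (0.077 and 0.0875). It was unevenly held there, with 43.4 and 32.8 CPM in one T and NK-like cluster and 4.48 and 9.75 CPM in the other. Macrophage-like cells held 39.2 and 36.9 CPM, but the class lay mostly in different clusters in the libraries. The cluster with low C1q expression (18 and 211 cells) held 101 and 37.8 CPM (log2 ratio −1.42 [−2.36, −0.35]), and that with high C1q expression (40 and 43 cells) 18.5 and 33.6 CPM, from 6 and 17 UMIs.

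Hormone-responsive luminal cells had the lowest Igf1r level of the named classes with over 100 cells, 7.85 CPM [7.07, 8.68] in Ctrl and 14.6 CPM [13.7, 15.6] in CL. The log2 ratio was 0.90 [0.72, 1.07]. Both levels were below the droplets, at ratios of 0.263 and 0.474 against 0.165 and 0.352 for foreign markers of this class. Taken alone, the foreign marker Aldh1a3 reached 0.242 and 0.448, Csn3 0.163 and 0.342, and Col1a1 0.0468 and 0.0461. Igf1r was thus close to Aldh1a3 in both libraries. A single cluster of the class held most of the UMIs in CL (578 of 911), with 42.6 CPM in 145 Ctrl cells and 41.4 CPM in 504 CL cells, which overlapped (log2 ratio −0.04 [−0.30, 0.22]). This cluster had the highest mean doublet score of the luminal clusters (0.153) and also carried the secretory markers Csn3 (969 and 813 CPM) and Aldh1a3 (840 and 792 CPM). In 2 other clusters Igf1r was higher in CL beyond counting error, at low levels (2.26 against 5.10 CPM and 3.61 against 6.11 CPM). Without the high-scoring cluster the class ratio was 0.47, and with free RNA subtracted 0.37. Its part in the class value beyond these figures was not tested.

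**Figure D2:**
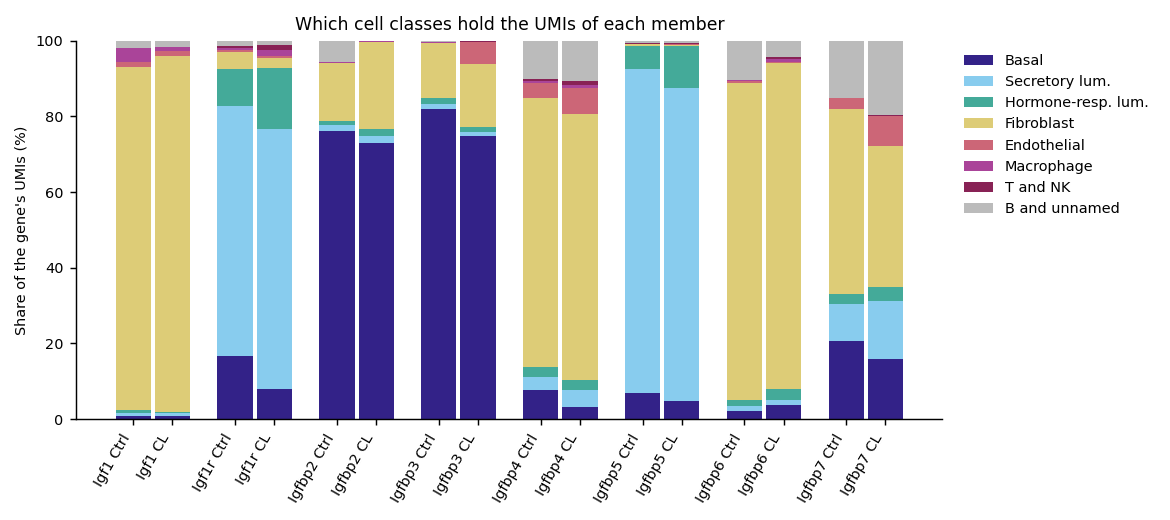
Share (%) of all UMIs of each member held by each cell class, for the Ctrl and CL libraries side by side. Fibroblast-like cells hold 90.6% and 94.1% of Igf1, basal-like cells 81.9% and 74.8% of Igfbp3, and secretory-lineage cells 85.4% and 82.7% of Igfbp5.

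Igfbp3 and Igfbp2 were the binding proteins led by basal-like cells, although Igfbp5 was more abundant there. In basal-like cells Igfbp3, which carries most circulating IGF in a complex with the acid-labile subunit, held 1979 UMIs in Ctrl (525 CPM [502, 549]) and 720 UMIs in CL (240 CPM [223, 259]). The library labelled CL was lower by more than counting error, and the gene was found in fewer cells as well as at a lower level. Its share of cells thinned to 2061 UMIs was 44.1% [39.1, 49.1] in Ctrl and 25.0% [20.8, 29.5] in CL, and unthinned 69.0% and 42.6%. Hormone-responsive cells, which should lack it, held an Igfbp3 UMI in 1.55% and 0.422% of cells. The droplets also carried less Igfbp3 in the library labelled CL, 6.67 CPM against 21.8 CPM.

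Igfbp2, whose product is a major IGF carrier of serum, was much closer between the libraries in the same cells. Basal-like cells held 1194 Igfbp2 UMIs in Ctrl (317 CPM [299, 335]) and 841 in CL (281 CPM [262, 301]), a log2 ratio of −0.17 [−0.30, −0.04]. The thinned share of cells was 24.9% and 24.8%. The log2 ratio of Igfbp3 was −1.13 [−1.25, −1.002], so the intervals of the ratios of these genes did not overlap. In a cluster led by division genes with basal markers (9 Ctrl and 2 CL cells), Igfbp2 reached 787 and 1151 CPM and Igfbp3 536 and 144 CPM, from cells too few for more than a description.

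Fibroblast-like cells were the second class for both genes. Igfbp2 held 128 CPM [112, 145] in Ctrl and 160 CPM [142, 181] in CL (log2 ratio 0.33 [0.07, 0.59]), but the UMIs came from 47 and 39 cells, and 1 cell held 27.3% of them in Ctrl. With the mitochondrial share limited to 5% the ratio was 0.074, and without the cell with most UMIs in each library it was 0.56. Igfbp3 held 189 CPM [170, 210] in Ctrl and 97.7 CPM [83.2, 114] in CL (log2 ratio −0.95 [−1.23, −0.68]). The lower sum did not come with fewer cells. An Igfbp3 UMI was found in 30 of 225 Ctrl cells and 47 of 239 CL cells, and the thinned shares were 5.77% [3.02, 9.86] and 11.6% [7.67, 16.7]. A single Ctrl cell held 77 of the 352 UMIs (21.9%), and the mean of each cell's CPM gave a log2 ratio of −0.18.

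In fibroblast-like cells, Igfbp2 and Igfbp3 were rarely found in the same cell. Of the 47 Ctrl cells with an Igfbp2 UMI 1 held Igfbp3 (2.13% [0.0539, 11.3]), against 16.3% [11.2, 22.6] of the cells without Igfbp2. In CL 2 of 39 held it (5.13% [0.627, 17.3]), against 22.5% [16.9, 28.9] of the rest. The cells with Igfbp2 were the deeper ones (median 8739 against 7434 UMIs in Ctrl and 6855 against 5020 in CL). In basal-like cells the relation ran the other way. There, 76.5% [69.7, 82.4] of Ctrl cells with Igfbp2 also held Igfbp3, against 62.7% [56.0, 69.1] of those without, and in CL 50.3% [42.9, 57.6] against 36.9% [30.9, 43.1]. The basal cells with Igfbp2 were deeper as well (10378 against 6882 UMIs in Ctrl and 7916 against 4754 in CL), and the part of depth in the basal difference was not tested.

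**Figure D3:**
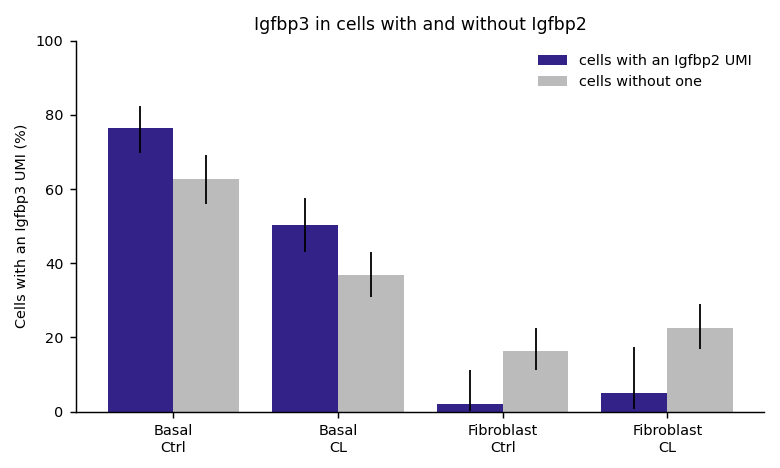
Share of cells (%) with an Igfbp3 UMI among cells with (dark) and without (grey) an Igfbp2 UMI, in basal-like and fibroblast-like cells of each library, with exact 95% Clopper-Pearson intervals. The dark bar is the higher of the pair in basal-like cells and the lower in fibroblast-like cells (2.13% and 5.13%).

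Fibroblast-like cells were then divided by a UMI of Pi16 or Dpp4, markers of adventitial fibroblasts (85 and 69 cells with, 140 and 170 without). The cells with such a UMI were deeper (median 10020 against 6649.5 UMIs in Ctrl and 8426 against 4603.5 in CL). The part of depth in this split was not tested. Igfbp2 was the member that most followed this split, with 229 and 309 CPM in cells with Pi16 or Dpp4 and 42.4 and 53.9 CPM in those without. Igfbp6 was also higher in the first set (2559 and 1697 CPM against 1771 and 1334 CPM), as was Igf1 (302 and 308 CPM against 185 and 227 CPM). Igfbp3 was lower in the first set in CL (46.2 against 135 CPM), whereas in Ctrl both sets were close (175 against 200 CPM), with 77 of the 149 UMIs of the first set from 1 cell. Igfbp7 was close in both sets in Ctrl (1934 and 1981 CPM) and lower in the first set in CL (1025 and 1494 CPM). Among CL fibroblast-like cells, an Igf1 UMI was found in 87.2% of those with Igfbp2 and 43.5% of the rest, and in Ctrl in 57.4% and 48.3%.

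Igfbp6 and Igfbp7 were the most abundant members in fibroblast-like cells. Igfbp6, which prefers IGF2 to IGF1, held 3972 UMIs in Ctrl (2131 CPM [2065, 2198]) and 2463 UMIs in CL (1486 CPM [1427, 1545]), a log2 ratio of −0.52 [−0.59, −0.45]. Igfbp7 held 3653 UMIs in Ctrl (1960 CPM [1897, 2024]) and 2152 in CL (1298 CPM [1244, 1354]), a log2 ratio of −0.59 [−0.67, −0.52]. Both were lower in the library labelled CL beyond counting error, as were the summed markers of the class given above, and whether these moved together for a common reason was not tested. In the same cells the sum of the 9 hormone-responsive markers was 859 CPM for Ctrl against 1662 CPM for CL. That of the 9 basal markers was 77.2 against 144 CPM, and that of the 8 secretory-lineage markers 402 against 406 CPM. The foreign markers of this class, a list without the hormone-responsive marker Ly6a, summed to 481 and 594 CPM. The part of these sums in the fibroblast-like ratios was not tested. The thinned shares of cells were 82.7% [76.9, 87.6] and 78.1% [72.0, 83.5] for Igfbp6, and 83.7% [77.9, 88.4] and 72.6% [66.1, 78.4] for Igfbp7.

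Igfbp4, whose product inhibits IGF action until it is cut by the protease encoded by Pappa, went the other way in the same cells. It held 827 CPM [786, 869] in Ctrl and 962 CPM [915, 1010] in CL (log2 ratio 0.22 [0.12, 0.32]), with thinned shares of 63.5% and 64.2%. The mean of each cell's CPM gave 0.10. In basal-like cells Igfbp4 was low, 44.8 CPM in Ctrl and 25.0 CPM in CL (log2 ratio −0.84 [−1.25, −0.44]), against 31.2 and 26.8 CPM in droplets.

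Among the binding proteins, Igfbp6 was the most restricted to one class by its margin over the next named class. Its fibroblast-like level exceeded the next named class by 4.50 [3.96, 5.09] on the log2 scale in Ctrl and 5.34 [5.06, 5.63] in CL. Outside the named classes, the Ccl2 cluster held more Igfbp6 than the fibroblast-like cells in Ctrl, 4497 CPM [4106, 4915], and 1368 CPM [1138, 1630] in CL. In CL a single cell gave 62.4% of those UMIs, so the ratio of −1.72 [−2.01, −1.43] rests on few cells. Igfbp7 was highest in the Myl9 cluster, at 3650 CPM [3425, 3886] in Ctrl and 3455 CPM [3251, 3669] in CL, where every cell held it and the log2 ratio was −0.08 [−0.21, 0.05]. That cluster also held Igfbp4 (701 and 632 CPM) and Igfbp5 (1249 and 950 CPM), and no Igf1. It held UMIs of all 8 pericyte markers and of 6 of the 9 basal markers.

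Endothelial-like cells carried Igfbp7 and Igfbp4. Igfbp7 held 708 CPM [616, 811] in Ctrl and 791 CPM [720, 868] in CL (log2 ratio 0.16 [−0.08, 0.40]), and Igfbp4 277 CPM in both (0.00 [−0.39, 0.40]). These sums join clusters in different proportion. The cluster with nearly all Igfbp7 UMIs (34 Ctrl and 52 CL cells) was lower in CL beyond counting error for Igfbp7 (1266 and 939 CPM, −0.43 [−0.67, −0.19]) and for Igfbp4 (449 and 274 CPM, −0.71 [−1.14, −0.28]). The other cluster (19 and 10 cells) held 9 and 27 Igfbp4 UMIs. With only 54 and 63 cells, single cells weighed heavily: leaving out the cell with most Igfbp4 UMIs in each library gave 0.40, and the mean of each cell's CPM 1.08. Igfbp3 had no UMI in Ctrl and 54 in CL (95.1 CPM), of which 43 came from 1 cell. With Ctrl set to 3 counts the log2 ratio was 3.23, and its exact interval began at 2.89, from 6 of 63 CL cells. Igfbp6 held 28 UMIs in Ctrl, 17 of them in 1 cell, and 3 in CL. Igf1r held 27 and 28 UMIs (91.0 and 49.3 CPM, log2 ratio −0.88 [−1.70, −0.07]). In the same cells the sum of the 9 hormone-responsive markers was 1180 CPM for Ctrl against 3476 CPM for CL, and that of the 10 endothelial markers 7156 against 5255 CPM. The foreign markers of this class, a list without the hormone-responsive marker Ly6a, summed to 927 and 1416 CPM. Of these, Prlr was higher in CL (155 and 728 CPM), and Csn3 (314 and 173 CPM) and Aldh1a3 (273 and 167 CPM) were lower. The part of these differences in the endothelial-like ratios was not tested.

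Igfbp5, which is abundant in milk-forming epithelium as the gland regresses, was the most abundant member overall. Secretory-lineage cells held 96020 UMIs in Ctrl (3153 CPM [3133, 3173]) and 94844 in CL (2181 CPM [2167, 2195]), a log2 ratio of −0.53 [−0.54, −0.52]. The level was lower in the library labelled CL in each of the 6 secretory-lineage clusters, by log2 ratios from −0.25 to −0.38 in 5 of them and −1.02 in the other, which held 18 Ctrl and 783 CL cells. The makeup of the class also differed, and the cluster with the highest level in Ctrl (4046 and 3181 CPM) held 684 Ctrl and 424 CL cells. The part of this makeup in the class value was not tested. An Igfbp5 UMI was found in 98.7% and 96.1% of secretory-lineage cells, a share too near its limit to follow the level. The droplets, at 795 CPM in Ctrl and 595 CPM in CL, and the summed secretory markers were also lower in the library labelled CL.

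Basal-like cells came second for Igfbp5 with 2097 CPM [2051, 2143] in Ctrl and 1834 CPM [1785, 1883] in CL (log2 ratio −0.19 [−0.24, −0.14]). The secretory lead over them was 0.59 [0.56, 0.62] in Ctrl and 0.25 [0.21, 0.29] in CL. Fibroblast-like cells held 304 CPM [280, 330] and 225 CPM (−0.44 [−0.63, −0.24]), at 0.383 and 0.378 of the droplets against 0.119 and 0.165 for foreign markers. Endothelial-like cells held 529 and 196 CPM, at 0.666 and 0.328 of the droplets against 0.229 and 0.394 for foreign markers. Their CL level was therefore read as background. The log2 ratio of −1.44 [−1.80, −1.08] became 0.0024 when doublets were kept.

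In hormone-responsive cells the Igfbp5 sum was higher in CL while most clusters were not. The class held 145 CPM [142, 149] in Ctrl and 205 CPM [201, 208] in CL (log2 ratio 0.50 [0.45, 0.54]). The ratios to the droplets, 0.183 and 0.344, were close to those of foreign markers of the class, 0.165 and 0.352. The cluster with high doublet score held 1032 CPM in Ctrl and 716 CPM in CL, with 145 and 504 cells. Of the other 4 clusters, 2 were lower in CL beyond counting error (94.0 against 50.4 CPM, and 65.8 against 36.6 CPM), 1 was higher (45.3 against 56.5 CPM) and 1 overlapped (43.8 against 39.0 CPM). Without the high-scoring cluster the class ratio was −0.33, and with doublets kept −0.043.

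**Figure D4:**
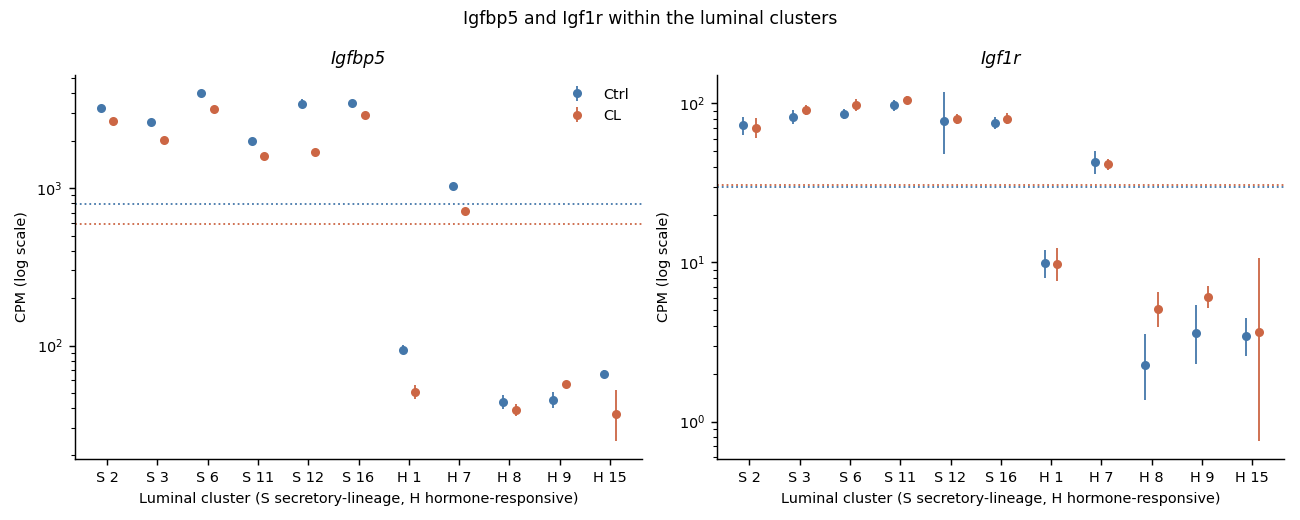
Igfbp5 (left) and Igf1r (right) levels (CPM, log axis) in 6 secretory-lineage (S) and 5 hormone-responsive (H) luminal clusters of the Ctrl (blue) and CL (orange) libraries, with exact 95% Poisson intervals and dotted lines for the droplet level. Igfbp5 is lower in CL in all 6 secretory-lineage clusters, and cluster H 7 stands apart from the other hormone-responsive clusters for both genes.

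Igfbp7 in secretory-lineage cells (23.6 and 20.5 CPM, log2 ratio −0.20 [−0.35, −0.06]) was below the droplets at ratios of 0.362 and 0.453, above the 0.0756 and 0.0667 of foreign markers. Basal-like cells held more of it, 409 CPM [389, 430] in Ctrl and 306 CPM [286, 326] in CL (−0.42 [−0.54, −0.30]). Igfbp6 in basal-like cells was near the droplets, 27.6 and 36.7 CPM (log2 ratio 0.41 [0.01, 0.81]) against 48.5 and 26.2 CPM. In secretory-lineage cells it had 60 and 34 UMIs, at ratios to the droplets of 0.0406 and 0.0298, which is background. Igfbp3 in hormone-responsive cells (42 and 13 UMIs) was at 0.0406 and 0.0313 of the droplets, also background.

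Over the members as a whole, few ratios were large. In basal-like cells 7 members had at least 50 UMIs over both libraries, and 1 of them (Igfbp3, lower) differed by 2-fold or more, against 2.09% of all 8369 genes with as many UMIs. Beyond counting error, 5 were lower and 1 was higher, against 12.8% and 6.76% of those genes, and the median log2 ratio was −0.19 against −0.08. In fibroblast-like cells 0 of 8 members passed 2-fold (3.99% of all genes), 4 were lower and 2 higher (13.7% and 10.7%), and the median was −0.18 against −0.03. Genes with many UMIs have narrow intervals, so these shares follow depth as well as size of difference.

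In secretory-lineage cells 1 of 5 members passed 2-fold (Igfbp6, lower, at the background level; 2.27% of all genes), 3 were lower and 1 was higher beyond counting error (21.4% and 14.8%). In hormone-responsive cells 1 of 6 passed it (Igfbp3, lower, again background; 3.03% of all genes), 1 was lower and 2 were higher (27.3% and 21.4%). In endothelial-like cells 1 of 5 was 2-fold higher (Igfbp3) and 1 lower (Igfbp5, at the background level in CL), against 8.26% of all genes in either direction. Beyond counting error 1 was higher and 2 were lower (12.9% and 14.2%).

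**Figure D5:**
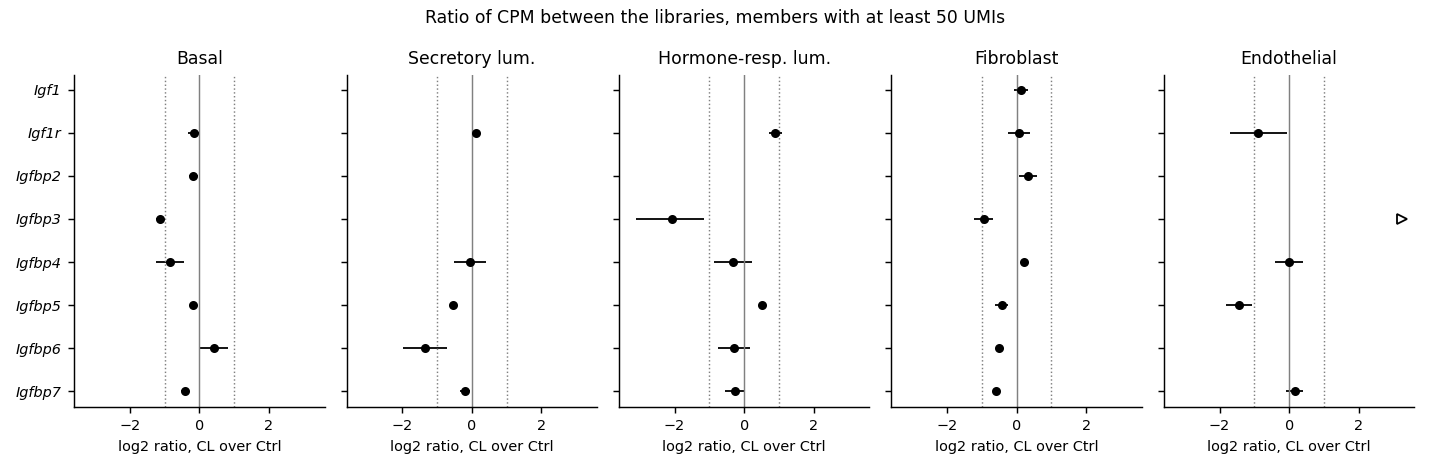
Log2 ratio of CPM, CL over Ctrl, for members with at least 50 UMIs over both libraries in 5 cell classes, with exact 95% intervals, a solid line at 0 and dotted lines at 2-fold. The open triangle marks the value with Ctrl, which held no UMI, set to 3 counts, and Igfbp3 lies near or beyond the lower dotted line in basal-like and fibroblast-like cells.

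Sums over all cells gave another picture than the classes. The classes made up different parts of the libraries, and the part of this makeup in the sums was not tested. Over all cells, Igfbp3 had 28.0 CPM in Ctrl and 8.16 CPM in CL (log2 ratio −1.78), Igfbp6 55.0 and 24.2 CPM (−1.18), and Igfbp2 18.2 and 9.76 CPM (−0.90). Each of these was further below 0 than in the class that led the gene. Igfbp7 was at −0.82 and Igfbp4 at −0.38. Igfbp5, in contrast, was nearer 0 than in secretory-lineage cells (−0.42 against −0.53), and Igf1r was at 0.12. Igf1 was at 5.69 and 3.89 CPM (−0.55) although its fibroblast-like ratio was 0.13.

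The other genes of the pathway were followed in a list of 40. Igf2, the second IGF ligand, had 1 and 5 UMIs in fibroblast-like cells and none in basal-like or secretory-lineage cells, against 445 and 432 UMIs of Igf1 in the former. Endothelial-like cells held 13 and 43 Igf2 UMIs (43.8 and 75.8 CPM, log2 ratio 0.79 [−0.13, 1.81]), far above the droplets (0.454 and 0.450 CPM). Igfals, which encodes the acid-labile subunit, had 3.58 and 2.74 CPM in hormone-responsive cells, against 1.72 and 2.25 CPM in droplets. The receptor Igf2r, which clears IGF2, held 36.3 to 73.5 CPM in the epithelial classes and fibroblast-like cells, where droplets held 39.7 CPM in Ctrl and 36.8 CPM in CL, so that its basal-like level was near the droplets. Its level was lower in CL beyond counting error in secretory-lineage cells (65.0 and 54.5 CPM) and in T and NK-like cells (84.9 and 55.5 CPM, log2 ratio −0.61 [−0.97, −0.24]). The libraries overlapped in the fibroblast-like (62.2 and 49.5 CPM), basal-like (36.3 and 44.4 CPM) and hormone-responsive classes (73.4 and 73.5 CPM). Macrophage-like cells held 0 and 45 Igf2r UMIs (20.7 CPM in CL, below the droplets), fewer than the 50 from which ratios were read.

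Proteases that cut binding proteins differed by class. Pappa, which cuts Igfbp4, was highest in basal-like cells (61.3 and 38.4 CPM, log2 ratio −0.67 [−1.01, −0.34]) and stood at 15.0 and 17.5 CPM in the fibroblast-like cells that led Igfbp4. Htra1, a secreted serine protease that cuts Igfbp5, was highest in fibroblast-like cells (726 and 562 CPM, −0.37 [−0.49, −0.25]). Stc2, an inhibitor of Pappa, was highest in hormone-responsive cells (226 and 169 CPM, −0.42 [−0.46, −0.38]), against 128 and 90.3 CPM in droplets. In secretory-lineage cells its 13.8 and 9.43 CPM were far below the droplets, at ratios of 0.108 and 0.104 against 0.0756 and 0.0667 for foreign markers. Its relative Stc1 was lower in CL endothelial-like cells (246 and 63.4 CPM, −1.96 [−2.57, −1.36]), beside the hormone-responsive and foreign marker sums given above. In the larger endothelial-like cluster it held 437 and 65.2 CPM (−2.74 [−3.40, −2.11]). Igf2bp2, which binds Igf2 mRNA, had 32.7 and 51.3 CPM in fibroblast-like cells.

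Of the growth hormone arm, Socs2, a feedback inhibitor of the growth hormone receptor, led in basal-like and secretory-lineage cells and shared the lead with Jak2 (56.9 and 70.0 CPM) in fibroblast-like cells. Socs2 was lower for CL than for Ctrl in basal-like (84.9 and 54.4 CPM, log2 ratio −0.64 [−0.92, −0.36]), fibroblast-like (80.5 and 43.4 CPM, −0.89 [−1.32, −0.47]) and secretory-lineage cells (45.5 and 34.7 CPM, −0.39 [−0.50, −0.28]). In hormone-responsive cells Stat5a, a transcription factor downstream of that receptor and of the prolactin receptor, led the arm with 96.2 and 54.8 CPM (−0.81 [−0.88, −0.75]). The makeup of the class also differed, and the cluster with most Stat5a held 834 Ctrl and 43 CL cells (137 and 116 CPM, −0.24 [−0.56, 0.05]). The part of this makeup in the class value was not tested. Within the 5 hormone-responsive clusters the Stat5a ratios ran from −0.12 to −0.71, and 3 of them were beyond counting error. Droplets also carried less Stat5a in CL (63.2 and 35.1 CPM).

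Among the adaptors of the receptor, Irs2 led in basal-like (202 and 168 CPM) and fibroblast-like cells (194 and 151 CPM), and Grb2 in hormone-responsive (90.7 and 102 CPM) and secretory-lineage cells (98.2 and 103 CPM). Irs1 was the adaptor with a 2-fold difference, at low levels, in hormone-responsive cells (10.8 and 4.88 CPM, log2 ratio −1.15 [−1.36, −0.94]) and in secretory-lineage cells (6.44 and 3.13 CPM, −1.04 [−1.37, −0.72]). Droplets held 15.1 and 4.95 CPM of it, more than these classes. Within the 5 hormone-responsive clusters its ratios ran from −0.10 to −1.27, and 2 were beyond counting error. Of the secretory-lineage clusters 2 held enough Irs1 UMIs, with ratios of −1.14 [−1.78, −0.53] and −0.64 [−1.36, 0.08]. Grb10, which dampens receptor signalling, was lower over all CL endothelial-like cells (142 and 59.9 CPM, −1.24 [−1.94, −0.55]), beside the hormone-responsive and foreign marker sums given above. Within the clusters of that class, which held under 50 Grb10 UMIs each, it was not beyond counting error (−0.88 [−1.81, 0.09] and −0.98 [−2.43, 0.27]). Of the PI3K to AKT arm, Rheb, the activator of mTOR, was most abundant in the epithelial and fibroblast-like classes. Secretory-lineage cells held 384 and 356 CPM, fibroblast-like cells 360 CPM in either library, basal-like cells 318 and 281 CPM, and hormone-responsive cells 210 and 228 CPM. Droplets held 389 and 366 CPM of Rheb, more than each of these classes. Pik3cb, a catalytic PI3K subunit, was lower in CL macrophage-like cells (76.1 and 31.8 CPM, −1.26). Within the cluster with high C1q expression the libraries overlapped (101 and 61.3 CPM, −0.73 [−1.48, 0.03]). The cluster with low C1q expression (18 and 211 cells) held 0 and 38 Pik3cb UMIs (22.8 CPM in CL), fewer than the 50 from which ratios were read. The 9 basal markers summed to 530 CPM in Ctrl against 52.5 CPM in CL macrophage-like cells. The part of the clusters and of these markers in the class value was not tested.

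By count, 0 of 29 pathway genes with enough UMIs passed 2-fold in basal-like cells (2.09% of all genes) and 0 of 26 in fibroblast-like cells (3.99%). The counts were 1 of 32 in hormone-responsive and 1 of 32 in secretory-lineage cells (Irs1 in each, against 3.03% and 2.27%), and 2 of 13 in endothelial-like cells (Stc1 and Grb10, against 8.26%), all lower in CL. Of 19 such genes in T and NK-like cells 0 passed it, where 3.01% of all genes did, and in macrophage-like cells 1 of 14, where 16.8% did. Beyond counting error, 4 were lower and 0 higher in basal-like, 7 and 2 in fibroblast-like, 16 and 3 in secretory-lineage and 11 and 10 in hormone-responsive cells. Of all genes, 12.8% were lower and 6.76% higher in basal-like, 13.7% and 10.7% in fibroblast-like, 21.4% and 14.8% in secretory-lineage and 27.3% and 21.4% in hormone-responsive cells. The median log2 ratios were −0.09, −0.06, −0.14 and 0.00 in the same order, against −0.08, −0.03, −0.04 and −0.02 for all genes. In endothelial-like cells 4 were lower and 0 higher, against 14.2% and 12.9% of all genes. There the median was −0.31 against −0.02. In T and NK-like cells 5 were lower and 1 higher, and in macrophage-like cells 2 and 2, without a share of all genes to set beside them.

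Finally, genes were ranked by how closely their levels over 14 class-by-library sums (7 classes in each library) followed those of each member, among 5625 genes. These correlations are descriptions over few points that share libraries and classes. Igf1 was followed most closely by the matrix gene Emilin1 (Pearson r = 0.952), the chemokine gene Ccl7 (0.935) and Svbp (0.928), and Igf1r by Nt5dc3 (0.966), Rybp (0.945) and Cebpb (0.931). Igfbp2 and Igfbp3 shared 2 of their 3 closest genes, Sbspon and Scn7a. For Igfbp2 the values were 0.985 for Scn7a, 0.983 for Pappa and 0.981 for Sbspon, and for Igfbp3 0.952 for Fst, 0.952 for Sbspon and 0.932 for Scn7a.

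Igfbp4 was followed by Cd34 (0.977), Col15a1 (0.959) and Slc43a3 (0.9502), Igfbp6 by the matrix gene Tnc (0.964), Ugdh (0.955) and Rarres2 (0.9497), and Igfbp7 by the perlecan gene Hspg2 (0.984), Adamts5 (0.981) and Fbln2 (0.979). Igfbp5 was followed by Eif5b (0.955), Plekhb1 (0.954) and Pkp1 (0.942). Among the members themselves, Igfbp2 and Igfbp3 were closest (0.891), followed by Igfbp4 with Igfbp7 (0.871) and with Igf1 (0.870). Igfbp5 was near 0 with Igfbp6 (0.01) and Igfbp4 (−0.05).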

How the data were processed

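Droplet single cell RNA sequencing was analysed for 1 control (Ctrl) and 1 clodronate liposome (CL) library, grouped by the treatment label. The authors deposited raw UMI counts of 32285 genes by 6794880 barcodes, without normalization. The matrix header names Cell Ranger 4, the submitters' processing notes Cell Ranger 2.1.1 and mm10. Positions came from GENCODE M21, which held 32158 of the 32285 gene IDs. The 7217 (Ctrl) and 10555 (CL) barcodes with most UMIs were taken as candidates, because the deposited barcode lists did not index the matrix columns. They held 82.7% and 85.7% of 118743318 and 155765480 UMIs. Filters of 500 or more genes and 15% or less mitochondrial UMIs left 6297 and 9335 cells.

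Scrublet at an expected rate of 6% marked 352 Ctrl and, automatically, 0 CL cells. The Ctrl threshold was therefore used for both, after seeing the data, and removed 496 CL cells. Clustering in scanpy 1.11.5 (Python 3.11.15, 10000 UMIs per cell, 2000 variable genes without the members, 30 components, 15 neighbours, Leiden resolution 1) gave 24 clusters, of which 20 were named, 2 left unnamed and 2 dividing, with each dividing cell named on its own. A name needed at least 3 markers 2 times above the median cluster in 10% of cells, no rival class at 60% of its score, and no more markers of any other class than of its own among its 10 leading genes. The study's own cell names were not used here.

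UMIs were summed per library and class as CPM. Shares of cells were also computed with each cell thinned to percentile 10 of the UMIs per cell in the shallower library. Ratios were read from 50 UMIs over both libraries. The self-test on simulated data held the true ratio in its interval for 95.5% of 200 changed genes among 8369 (basal-like), 93% among 6817 (fibroblast-like) and 96% among 12373 (secretory-lineage). Its counts were Poisson draws, the model that the intervals assume, without spread between cells. It therefore checked the computation and not how far the intervals cover the real counts. Named genes were the 8 members, pathway genes past 2-fold beyond counting error or most abundant in their group, and the 3 genes most like each member. Members and lists were chosen with earlier results of these data known. The foreign marker lists were chosen with the data seen, and 1 macrophage marker is not reported separately. In all, 16 alternatives were fixed beforehand and 3 added later, among them TMM factors from edgeR 4.0.16. With numpy 2.4.6, scipy 1.17.1 and matplotlib 3.10.9 the remaining steps were run.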

Additional observations from a re-analysis of the deposited data

Results flagged for a closer look

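In each case below the log2 ratio of CL over Ctrl was above 0 in one class and under 0 in another, both beyond counting error with the processing described above. Counting intervals were not computed for the alternatives. Each class is 1 library per group, so the difference between the classes was not tested.

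Igf1r was higher in CL in hormone-responsive cells and lower in endothelial-like cells, a difference of 1.78 on the log2 scale, and between secretory-lineage and endothelial-like cells it was 0.998. In hormone-responsive cells its level was below the droplets, at ratios close to those of the foreign marker Aldh1a3 alone. Over the alternatives the hormone-responsive ratio ran from 0.37 to 0.95, and the endothelial-like one, from 27 and 28 UMIs, from −1.18 to −0.54. Igfbp2 was higher in fibroblast-like and lower in basal-like cells (difference 0.50), with ratios from 0.074 to 0.56 and from −0.42 to −0.10 over the alternatives. Igfbp4 was likewise higher in fibroblast-like and lower in basal-like cells (1.06). Igfbp6 was higher in basal-like cells, near the droplet level, and lower in fibroblast-like cells (0.93) and in secretory-lineage cells (1.75), where it was background.

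Igfbp5 was higher in hormone-responsive cells, where its level was close to that of foreign markers and the direction turned without 1 cluster, and lower in the classes that follow. The differences were 0.69 against basal-like, 1.03 against secretory-lineage, 0.93 against fibroblast-like and 1.93 against endothelial-like cells. In endothelial-like cells its CL level was background. Over the alternatives the hormone-responsive ratio ran from −0.33 to 0.61 and the endothelial-like one from −1.80 to 0.0024. With doublets kept, the hormone-responsive ratio was −0.043 and the endothelial-like one 0.0024. The hormone-responsive ratio above 0, on which all these Igfbp5 differences rest, was then lost. Igfbp3 was higher in CL endothelial-like cells, with 43 of 54 UMIs from 1 cell and none in Ctrl. With Ctrl at 3 counts, the differences were 4.36 against basal-like, 5.32 against hormone-responsive cells, where it was background, and 4.18 against fibroblast-like cells.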

How the results depend on the processing

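No paired analysis was possible because each group is 1 library. Of 104 alternative values of the main ratios, those of each member in its leading class, 90 moved by less than counting error, and none turned direction. Of 336 alternative values of the other ratios 305 moved by less than counting error, 28 moved further and 3 turned direction. Of 48 alternative shares of cells 46 moved, and of 7 shares of genes past 2-fold 5 moved. Of 88 margins of the leading class 72 moved by less than counting error, and none turned direction.

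Limiting the mitochondrial share to 5% moved the ratio of Igfbp2 in basal-like cells to −0.33, of Igfbp6 and Igfbp7 in fibroblast-like cells to −0.63 and −0.68, and the smaller margins of Igfbp2, Igfbp5 and Igfbp7 to 1.10, 0.33 and 0.46. Keeping doublets gave −0.42 for Igfbp2 and −1.29 for Igfbp3 in basal-like cells, margins of 0.60 (Igfbp2), 1.00 (Igfbp3), 0.40 (Igfbp5) and 0.50 (Igfbp7), and turned Igfbp5 to −0.043 in hormone-responsive and 0.0024 in endothelial-like cells. Igfbp6 in fibroblast-like cells was −0.61 at Leiden resolution 2.0 and with the members among the variable genes. Naming each cell alone gave −0.47 for Igfbp5 in secretory-lineage cells and a margin of 0.41, and TMM factors −0.49 and 0.35. The mean of each cell's CPM gave −1.36 (Igfbp3, basal-like), 0.10 (Igfbp4, fibroblast-like) and −0.50 (Igfbp5, secretory-lineage), and margins of 1.78 (Igf1), 0.52 (Igfbp2), 0.49 (Igfbp3), 0.90 (Igfbp4), 0.39 (Igfbp5), 3.95 (Igfbp6) and 0.16 (Igfbp7). As alternatives added after seeing the data, leaving out the division clusters gave −0.54 (Igfbp5, secretory-lineage) and −0.44 (Igfbp6, fibroblast-like), and leaving out the hormone-responsive cluster of highest doublet score turned Igfbp5 there to −0.33. With droplets of 30 to 100 UMIs 13 of 15 ratios to the droplets moved, for example Igfbp6 in CL fibroblast-like cells from 56.7 to 30.7, and all were above 1. From 200 UMIs the share of all genes past 2-fold was 1.02% in basal-like, 1.81% in hormone-responsive, 1.11% in secretory-lineage, 2.64% in fibroblast-like, 8.36% in endothelial-like, 0.759% in T and NK-like and 14.6% in macrophage-like cells. The cause was not tested. Subtracting free RNA gave no value where under 3 counts were left, and it was not run for margins.

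Depth limits the endothelial-like and macrophage-like values, with under 70 Ctrl cells each, and differences in class makeup, pooling of sorted cells and animals cannot be told apart from the treatment.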
